A study of Mus musculus with 12 samples.

Results

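Cytosines that carry guanine at each of the positions +2, +3 and +4 after them were followed across total and polysome mRNA of mouse neural stem cells (NSCs). A cytosine was taken when it lay in an annotated gene on chromosomes 1 to 19 or X and had a coverage of at least 20 reads in both replicates of MF and of pMF. Of the 212737 cytosines with this coverage, 4425 (2.08%) had the 3 guanines and are called GGG-context cytosines here, and the remaining 208312 were the comparison. The 4425 lay in 1951 genes. The rule used coverage and sequence only. A deposited list holds a cytosine only where at least 1 read was left unconverted, so every one of the 212737 had at least 1 such read in each of the 4 libraries. The lists precede the study's later filters on noise and RNA structure.

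RNA bisulfite sequencing (RNA BS-seq) converts unmethylated cytosines, which are then read as thymine, while 5-methylcytosine (m5C) is still read as cytosine. The methylation level below is the percent of reads left unconverted, and a cytosine in a stable RNA structure can also escape conversion. NSUN2 is the methyltransferase that places much of the m5C in tRNAs and mRNAs, and its mRNA sites are known to be followed by a G-rich stretch that starts at the second base after the cytosine. A second enzyme, NSUN6, prefers a different motif, CTCCA, in which no run of G follows. No library here lacked NSUN2, so a GGG context is a sequence feature and not evidence of the enzyme.

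The NSCs came from the subventricular zone of wild-type male C57BL/6 mice aged 6 to 8 weeks and were grown as a monolayer. They were kept for 4 days in 1.5 µM (LF), 10 µM (MF) or 80 µM (HF) folic acid, and total mRNA gave 2 libraries for each concentration. Polysome mRNA from the same 3 concentrations gave another 2 libraries each (pLF, pMF and pHF), which makes 12 libraries. Cytosines of the NSC marker genes Nes, Pax6, Fabp7 and Hes5 were listed in all 12 libraries and none of Sox2. Mesenchymal markers were also listed, at 4 or 5 of 5 genes per library with Col1a1, Col1a2, Pdgfrb and Acta2 in all of them. Neuronal markers were listed at up to 4 of 5 genes (Tubb3 in all 12 libraries) and astrocyte markers at up to 3 of 4 (Aldh1l1 in all 12). At most 2 of 3 endothelial, 2 of 3 oligodendrocyte and 2 of 4 microglial markers were listed in a library, Cx3cr1 of the last in all 12. The part of these cell types in the levels below was not tested.

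Some libraries stood apart. The deposited coverage and methylated reads equalled those of the published site table at 29 to 103 of 54 to 151 shared cytosines in 10 libraries, but at 0 of 59 and 0 of 53 in the 2 total libraries labelled HF. These 2 libraries also had 5200 and 4090 called cytosines in nuclear genes, against 566 to 611 in LF and MF. They are named as labelled HF throughout. The second pHF library listed 38353 cytosines with a level above 0.9, against 1102 to 3465 in the other libraries, and a median coverage of 920 against 335 to 605.

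The contexts that carry most of the results are shown here as 21 bases, 5′ to 3′ on the transcribed strand in build GRCm38 (mm10), with the cytosine and its 3 guanines in capitals. The first 11 are isolated GGG-context cytosines that were called, as defined below, in all 4 MF and pMF libraries, in the order of their mean level. Isolated means that no other cytosine called in an MF or pMF library lay within 25 bases on the same strand, and clustered that one did. Calls in LF, HF as labelled, pLF and pHF did not count for this. Where shares called per library are given for isolated calls, the neighbours are instead the calls of that same library. The base between the cytosine and the guanines was free to vary.
Ranbp9 (5′ UTR, chr13:43481060-43481080, minus strand): ccgcgctccgCcGGGccgcgc
Myo6 (3′ UTR, chr9:80310356-80310376, plus strand): accagggagtCaGGGtctcac
Pvt1 (intron, chr15:62259291-62259311, plus strand): gacacagaaaCaGGGgcatag
Glg1 (3′ UTR, chr8:111155340-111155360, minus strand): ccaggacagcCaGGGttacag
Klhl26 (coding, chr8:70455571-70455591, minus strand): tggcctcctgCaGGGcctggc
Emc3 (5′ UTR, chr6:113531520-113531540, minus strand): gagccgaaagCcGGGaggaac
Cenpv (coding, chr11:62527492-62527512, minus strand): gctccaacccCgGGGgctttg
Farp2 (coding, chr1:93600008-93600028, plus strand): tacagctgagCaGGGtgcatc
Rab1a (3′ UTR, chr11:20225940-20225960, plus strand): gcctcgaactCaGGGatccac
Atp6v0a1 (coding, chr11:101027278-101027298, plus strand): gtgtgattaaCcGGGagcgga
Gpr137 (coding, chr19:6939029-6939049, minus strand): tgggcttcttCcGGGtacacc
Col4a6 (coding, chrX:141200176-141200196, minus strand; shown for its folate difference): tcaaaaatgtCaGGGgacaaa
Igfbp4 (coding, chr11:99041687-99041707, plus strand; a growth-list gene): ggatgccctgCgGGGtgtaca
Mgat4b (5′ UTR, chr11:50225536-50225556, plus strand; shown as a clustered, GC-rich context): cgctccggggCcGGGgccccc
Cenpb (5′ UTR, chr2:131179887-131179907, minus strand; shown as a clustered, GC-rich context): tgccgggcccCgGGGcggagg

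Nearly all GGG-context cytosines were close to unmethylated. The median level, averaged over the replicates, was 0.121% in MF and 0.166% in pMF, and 4153 (93.9%) and 3896 (88.0%) of the 4425 were under 1%. In MF, 193 lay between 1% and 5%, 43 between 5% and 10%, 21 between 10% and 20% and 15 between 20% and 50%, with a highest level of 45.8%. In pMF the same bins held 394, 70, 40 and 24 cytosines, and 1 lay above 50%, at 69.2%. The other cytosines had a median of 0.0976% in MF and 0.147% in pMF, with 98.5% and 92.8% under 1%. Within single libraries the median of the GGG context was higher than that of the other cytosines in 12 of 12, by 0.0210 percentage points on average (SD 0.00444). The GGG context also had the lower median coverage in all 12 (1682 to 4129 reads against 1764 to 5218). With the other cytosines weighted to the coverage bins of the GGG context, a setting added after seeing the data, the difference was 0.0139 points (SD 0.00493, higher in 12 of 12), and no test is given for either value.

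The tail of methylated cytosines was where the contexts parted. A cytosine was called in a library when 6 or more methylated reads, 20 or more reads of coverage and 10% or more methylation were reached. In LF, 34 and 31 GGG-context cytosines were called (0.959% and 0.847% of those covered, against a background of 0.14% and 0.146% over all cytosines). MF had 36 and 33 (0.814% and 0.746%, background 0.133% and 0.132%), and HF as labelled had 39 and 34 (1.05% and 0.949%, background 0.286% and 0.192%). In polysome mRNA, pLF had 61 in each library (1.83% and 1.57%, background 0.266% and 0.28%). For pMF it was 55 and 66 (1.24% and 1.49%, background 0.182% and 0.222%), and for pHF 65 and 69 (1.80% and 2.30%, background 0.276% and 0.326%). Over the other cytosines alone the share called was 0.118% to 0.279%. The GGG context was thus called 3.88 to 8.25 times as often as the remaining cytosines, a difference of 1.11 percentage points (SD 0.449, higher in 12 of 12 libraries, exact two-sided sign-flip permutation test, p = 0.000488, the smallest it can give). The 12 libraries cover the same positions, so this p-value reads the spread between libraries and not between cytosines.

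**Figure D1:**
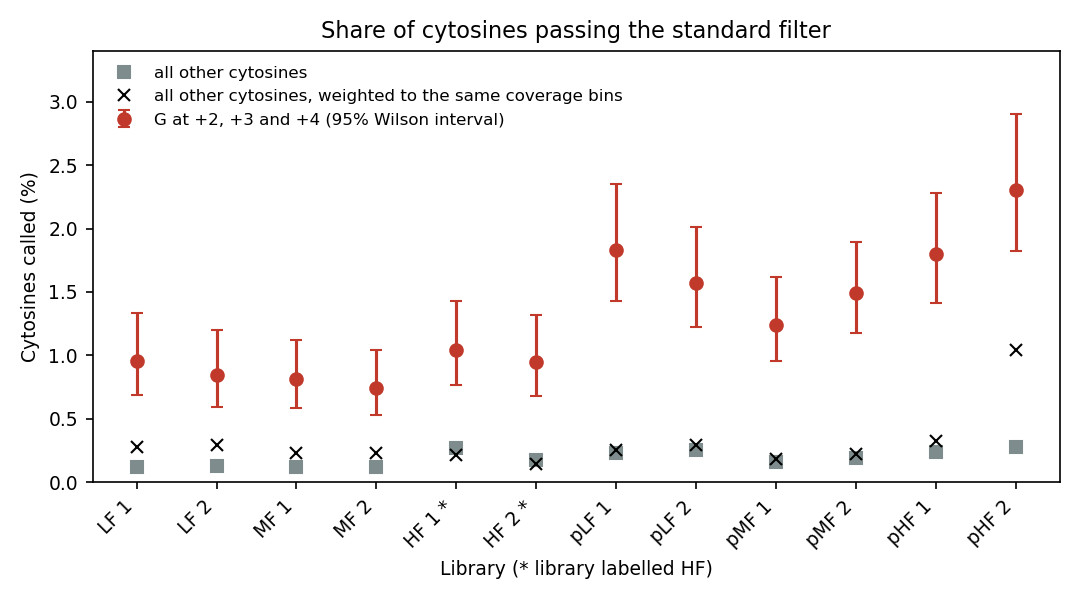
Percent of cytosines called in each of the 12 libraries, for the GGG context (red points, 95% Wilson interval, counting error only), for all other cytosines (grey squares) and for the others weighted to the coverage bins of the GGG context (crosses). The red points run from 0.746% to 2.30% and lie above the squares and crosses in every library.

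Coverage differed between the sets. The median coverage of the GGG context was 1682 to 4129 per library, and that of the other cytosines 1764 to 5218, higher in each library. A cytosine at low coverage is listed only where its level is high, so the others were also weighted to the coverage bins of the GGG context. The ratio was then 2.21 to 7.24, lowest in the second pHF library, where the weighted share of the others rose to 1.04%. At the edge of the rule, 26 GGG-context cytosines had their lowest coverage over the 4 libraries between 10 and 19, and 13 of them had a level of at least 10% in all 4. Among the 21 with a lowest coverage of 20 to 29, 2 had such a level.

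The share called differed with the number of guanines. With 2 of the 3 guanines, a median of 0.270% of cytosines was called over the 12 libraries (0.168% to 0.473%), against 1.14% with all 3 (0.746% to 2.30%). The share with 3 guanines was 4.09 to 5.52 times that with 2, and higher in 12 of 12 libraries (exact two-sided sign-flip permutation test, p = 0.000488). This test was not among those planned, and these shares were not weighted for coverage. With 1 guanine the median was 0.154% and with none 0.182%, and the 2-guanine class was above both in 11 of 12 libraries. Among isolated calls only, it was above both in 12 of 12, and the medians for 0 to 3 guanines were 0.0600%, 0.0334%, 0.190% and 0.889%. Of the 3 ways to hold 2 guanines, GGN had medians of 0.308% (GGA), 0.391% (GGC) and 0.252% (GGT), GNG had 0.343% (GAG), 0.327% (GCG) and 0.158% (GTG), and NGG had 0.242% (AGG), 0.752% (CGG) and 0.105% (TGG). For CGG the isolated calls were few, with a median of 0.0549%.

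**Figure D2:**
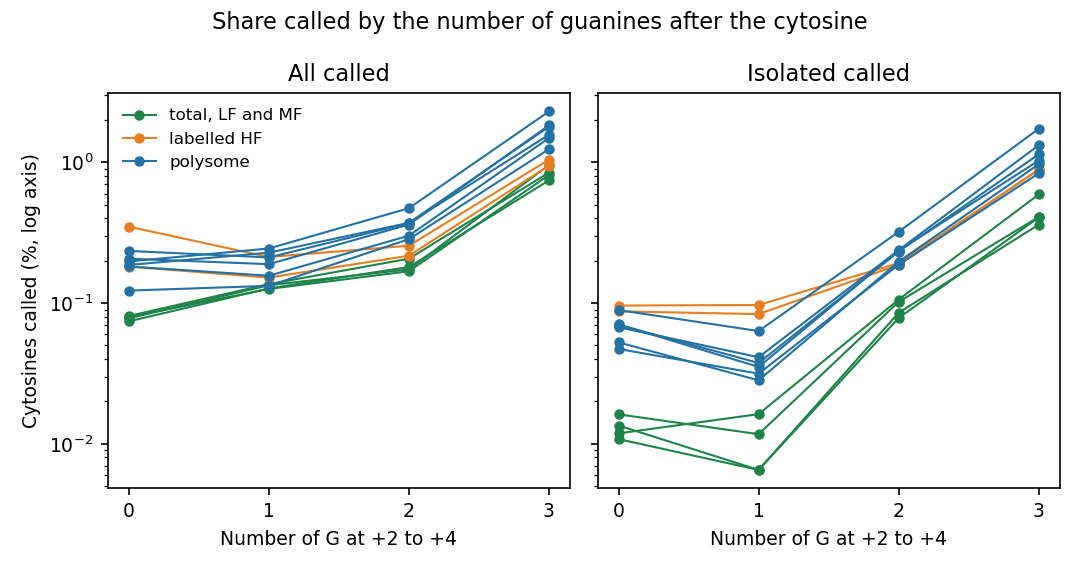
Percent of cytosines called (log axis) against the number of guanines at +2 to +4, 1 line per library, for all called cytosines (left) and for isolated ones (right). Every line rises from 2 to 3 guanines, and the isolated shares with 3 guanines run from 0.362% to 1.74%.

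The base at +1, which the rule left free, differed between called and uncalled GGG-context cytosines. T was the commonest there, at 1770 of the 4425, but a median of 0.210% of these was called, the lowest of the 4 bases in 12 of 12 libraries. The medians were 1.48% with A, 2.25% with C and 2.62% with G. Among isolated calls the medians were 1.48% with A, 0.85% with C, 1.62% with G and 0.157% with T, so that the order of A and C turned. These orders were noticed in the data and are given as a description.

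A cytosine called in both replicates of at least 1 of the 6 conditions is named methylated below. This held for 71 GGG-context cytosines (1.60%) in 60 genes, with 0.282% of all 212737 as the background and 528 (0.253%) of the others. By condition, 26 were methylated in LF (background 0.0931%), 28 in MF (0.112%), 27 in HF as labelled (0.113%), 42 in pLF (0.147%), 47 in pMF (0.15%) and 47 in pHF (0.145%). Of the 71, 8 were methylated in all 6 conditions, against 37 of all 599 methylated cytosines. The GGG context made up 2.08% of the covered cytosines, 11.9% of the 599 methylated ones and 14.9% of the 335 methylated ones that were isolated. Of the 71, 50 were isolated and 21 clustered, so 70.4% were isolated against 54.0% of the other methylated cytosines.

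The isolated and the clustered ones differed in sequence and place. The median GC content of the 21 bases was 61.9% for the 50 isolated and 85.7% for the 21 clustered, and 61.9% for all 4425. At +1 the isolated had 26 A, 14 G, 7 C and 3 T, and the clustered 2 A, 7 G, 11 C and 1 T. At -1 the isolated had T in 20 of 50, against 996 of 4425 (22.5%) overall. In the GENCODE vM21 annotation of the same strand, 29 of the isolated lay in coding sequence, 14 in 3′ UTRs and 4 in 5′ UTRs, with 1 each in an intron, in a noncoding exon and outside any exon or intron on this strand. The clustered were 11 in coding sequence, 8 in 5′ UTRs and 2 in 3′ UTRs. Over all 4425 the shares were 70.1% coding, 25.7% 3′ UTR and 2.64% 5′ UTR. The 21 bases occurred more than 1 time in the genome for 4 of the 71, those of Gm44950 (1292 copies), Glg1 (65), Rab1a (15) and Psma4 (2), so reads from other copies cannot be told apart from these 21 bases alone. Gm44950, Glg1 and Rab1a are soft-masked as repeats in the reference.

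Among the 50 isolated, 12 passed the filter in all 4 MF and pMF libraries, against 44 of all 335 isolated methylated cytosines. The highest level of the 12 belonged to the 5′ UTR of Ranbp9, which encodes a scaffold protein of an E3 ubiquitin ligase complex. Its 21 bases had a GC content of 95.2%, above the median of 85.7% for the clustered cytosines. In total mRNA LF had 41.7% and 46.8%, MF 41.2% and 44.3%, and HF as labelled 50.8% and 48.8%. In polysome mRNA pLF had 61.2% and 67.2%, pMF 75.6% and 62.9%, and pHF 66.3% and 68.2%. The coverage was 296 to 517 reads in total mRNA and 45 to 195 in polysome mRNA. All 6 polysome libraries lay above all 6 total libraries.

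Myo6 encodes a myosin that moves towards the minus end of actin filaments. For its 3′ UTR cytosine LF gave 40.5% and 40.7%, MF 44.0% and 38.2%, and HF as labelled 46.0% and 50%. On polysomes, pLF gave 42.3% and 74.0%, pMF 40.4% and 51.6%, and pHF 62.2% and 38.1%. The polysome replicates lay far apart, at 26 to 118 reads, and overlapped total mRNA. The 5′ UTR of Wac, an adaptor in transcription-coupled histone ubiquitination, ranged from 31.1% to 42.1% in total and from 32.0% to 60% in polysome mRNA, which also overlapped.

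The other 9 lay lower, and most were higher in polysome mRNA. Glg1, a Golgi glycoprotein, had 20.3% to 27.5% in total mRNA at 1189 to 2050 reads and 24.6% to 41.6% in polysome mRNA. Cenpv, a centromere protein, had 11.3% to 13.7% in LF and MF, 22.3% and 19.2% in the libraries labelled HF, and 20.4% to 29.7% in polysome mRNA. Klhl26, a Kelch-like protein, had 16.7% to 30.4% in total and 23.5% to 53.5% in polysome mRNA. In Pvt1, a long noncoding RNA, the levels were 16.2% to 30.6% and, in the 5 polysome libraries that listed it with a coverage of at least 20, 34.5% to 37.9%, without overlap. Gpr137 did not overlap either, at 7.09% to 15% and 15.2% to 30.0%. Emc3, a subunit of an insertase of the endoplasmic reticulum, had 10.8% to 24.3% and 22.1% to 30.0%, and Atp6v0a1, a subunit of the proton pump of vesicles, 10.6% to 17.7% and 14.3% to 22.7%. Farp2 (11.1% to 29.6% and 8.70% to 27.8%) and Rab1a (8.67% to 22.1%, not listed with the coverage in the libraries labelled HF, and 4.41% to 24.8%) showed no order of the fractions.

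**Figure D3:**
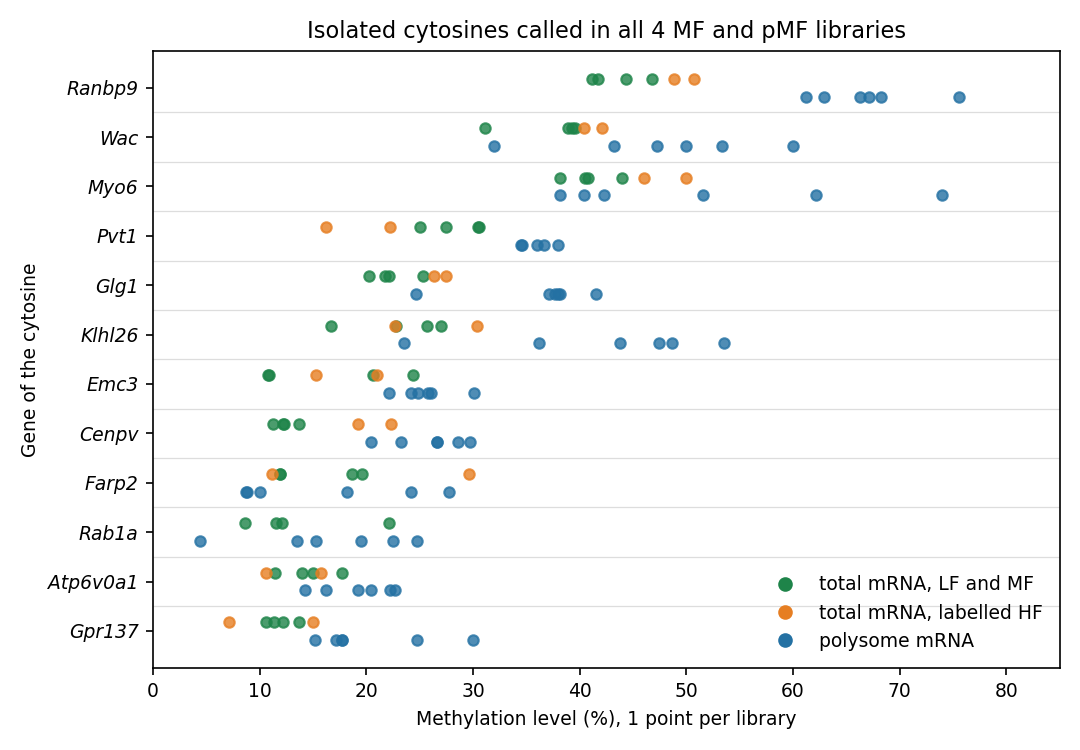
Methylation level in percent (horizontal axis) of the 12 isolated GGG-context cytosines called in all 4 MF and pMF libraries, 1 point per library, by gene (vertical axis). Polysome points (blue) of Ranbp9 sit between 61.2% and 75.6%, to the right of every total point, while those of Farp2 and Rab1a overlap the total points.

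The first comparison between the fractions asked whether methylated GGG-context cytosines had another level on polysomes than in total mRNA, and whether other methylated cytosines differed alike. Coverage of at least 20 in all 12 libraries was met by 46 of the 71 and by 275 of the 528 others. The mean level of the 46 in total mRNA was 10.7% ± 0.590 (SD, n = 2) for LF, 11% ± 0.60 for MF and 14.7% ± 1.69 for HF as labelled. On polysomes it was 17.8% ± 1.47 for pLF, 18.1% ± 0.644 for pMF and 19.4% ± 0.413 for pHF. Every polysome library was above every total library, by 6.30 percentage points on average. This difference is a description with no test, because 18 of the 46 were methylated in polysome conditions only, and so entered through the fraction in which they were high. It was 7.07 points for MF, 7.11 for LF and 4.71 for HF as labelled.

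The test was therefore made on cytosines chosen in total mRNA alone, a choice that does not favour polysomes and was added after seeing the data. Of the 46, 28 were methylated in LF, MF or HF as labelled. Their mean was 15.9% in total and 22.3% in polysome mRNA, a difference of 6.31 points (exact two-sided permutation test of the fraction within each folate concentration, 216 arrangements, p = 0.00926, the smallest it can give), with 5 of 6 polysome libraries above all total libraries. It was 7.81 points for MF, 7.09 for LF and 4.03 for HF as labelled. With the 16 methylated in LF or MF the difference was 9.87 points (exact permutation test, p = 0.00926), at 9.83 for MF, 7.46 for LF and 12.3 for HF as labelled. Each p-value in this paragraph includes the libraries labelled HF. With the 24 isolated ones of the 28 it was 5.49 points (exact permutation test, p = 0.0278), at 8.31 for MF, 7.34 for LF and 0.807 for HF as labelled, and 0 of 6 polysome libraries were above all total libraries. With reads pooled over the 28, so that cytosines of high coverage weigh most, it was 2.25 points and did not pass (exact permutation test, p = 0.0648). In these bulk samples a change in the share of some cells and a change in the RNA of each cell cannot be told apart.

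Of the other methylated cytosines, the 199 chosen in total mRNA in this way were also higher in polysome mRNA, by 5.98 points (exact permutation test, p = 0.00926). The 98 isolated ones of them differed by 1.52 points (exact permutation test, p = 0.50), and with pooled reads the 199 differed by -0.258 points (exact permutation test, p = 0.741). The shift of the GGG context exceeded theirs by 0.332 points, which is given with no test. Of the 46 and 275, 18 and 76 had entered through polysome conditions only and 5 and 51 through total conditions only, so the choice of cytosines bears on a difference between the contexts. The value was made of opposite parts, with the GGG context shifting 4.86 points more than the others in MF and 2.66 more in LF, but 6.53 points less in HF as labelled. Among isolated cytosines chosen in total mRNA, 24 in the GGG context and 98 others, the GGG context shifted 3.44 points more in MF, 2.42 more in LF and 6.05 more in HF as labelled. Over all 46 and 275 cytosines the difference was -0.343 points. The sign of the difference therefore depended on the libraries and cytosines counted.

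**Figure D4:**
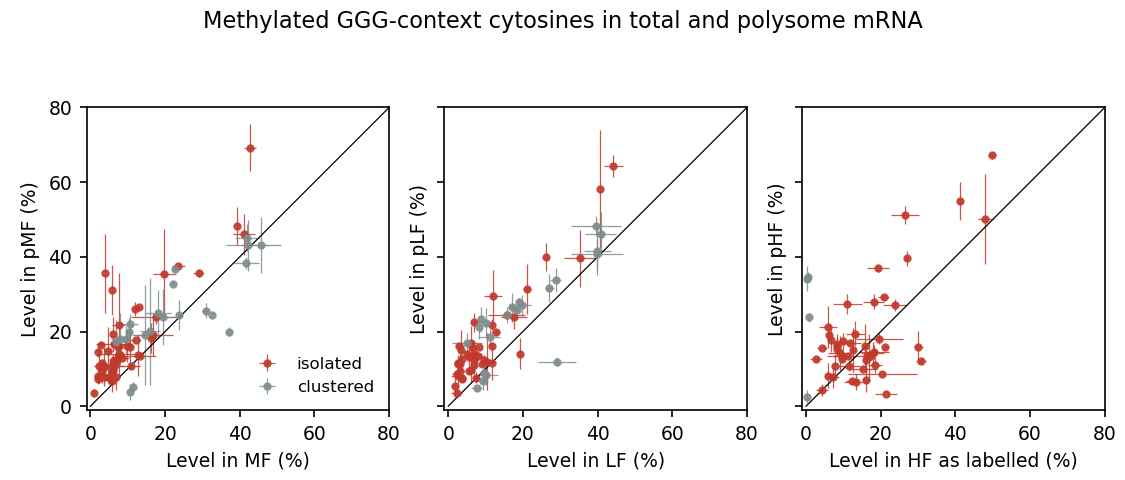
Mean methylation level (%) of the methylated GGG-context cytosines in total mRNA (horizontal) and polysome mRNA (vertical) for the 3 folate concentrations, with bars from the lower to the higher replicate and a line of equality. In MF and LF most isolated points (red) lie above the line, and in HF as labelled clustered points (grey) stand near 0 on the horizontal axis.

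Single cytosines were then compared with Fisher's exact test after summing the reads of both replicates, and p-values were adjusted (Benjamini-Hochberg) over all methylated cytosines of the 2 groups. Pooling leaves out the spread between replicates, so the counts of a beta-binomial test with 1 shared overdispersion and of limma on log odds are given too. Between pMF and MF, 30 of 52 GGG-context cytosines passed (57.7%, with 56.5% of all 370 tested as background). Of these 27 were higher in pMF (51.9%, background 46.8%) and 3 lower (background 9.73%). The beta-binomial test called 26 (background 44.3%) and limma 15 (background 30.3%). Of the 52, 24 had been tested only because they were methylated in pMF, and 19 of these passed, all higher. Among the 28 methylated in MF, 9 passed (background 39.7%), 6 higher (background 25.1%) and 3 lower (background 14.6%).

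Between pLF and LF, 28 of 43 passed (65.1%, background 59.7%), 27 of them higher in pLF (62.8%, background 55.4%) and 1 lower (background 4.31%), while the beta-binomial test called 22 (background 41.2%) and limma 14 (background 28.6%). Between pHF and the libraries labelled HF, 32 of 44 passed (72.7%, background 84.9%), 23 higher (background 62.0%) and 9 lower in pHF (background 23.0%), against 162 higher and 248 lower when all GGG-context cytosines, methylated or not, were tested, with 25 by the beta-binomial test (background 75.7%) and 17 by limma (background 64.9%). Here 19 of the 43 and 17 of the 44 had been tested only through the polysome group. Among the 24 methylated in LF, 10 passed (background 41.2%), 9 higher (background 35.6%) and 1 lower (background 5.67%). Among the 27 methylated in HF as labelled, 16 passed (background 75%), 8 higher (background 27.1%) and 8 lower (background 47.9%). Counts of cytosines methylated in either group are a description, since those that entered through 1 group had to differ.

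Ranbp9 was among the called cytosines with the widest fraction difference whose replicates did not overlap. Its pooled level was 67.8% in pMF against 43.1% in MF (adjusted p = 3.05e-06 by Fisher's exact test, 0.000105 by the beta-binomial test and 0.0392 by limma) and 63.9% against 44.3% at low folate (limma adjusted p = 0.0434). Col4a6, a chain of the collagen IV of basement membranes, had 37.8% and 24.4% in pMF against 5.65% and 5.96% in MF. Agfg2, which encodes an ArfGAP-domain protein, had 46.2% and 25% in pMF against 4.00% and 3.81% in MF. Only 26 and 28 reads covered it in pMF. The 2 other polysome libraries that listed it with a coverage of at least 20 had 6.78% (pLF) and 4.00% (pHF). Col4a6 and Agfg2 were not methylated in MF, so they were tested through pMF only and no p-value is given. Klhl26 rose from a pooled 19.8% to 35.0% by Fisher's exact test (adjusted p = 0.000200), which limma did not call (adjusted p = 0.219).

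At low folate, Fahd2a had 22.8% and 36.4% in pLF against 14.4% and 9.68% in LF, and was tested through pLF only. Myo6 passed only the tests on reads there (limma adjusted p = 0.249). Of the differences named in MF and LF, those in the other direction were in the clustered 3′ UTR cytosine of Tle3, a Groucho corepressor. It had 18.8% and 21.2% in pMF against 36.2% and 37.8% in MF (limma adjusted p = 0.0292), and 10.6% and 13.2% in pLF against 24% and 34.3% in LF (limma adjusted p = 0.0349).

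Folate in total mRNA was compared between LF and MF. The mean level of the 46 cytosines differed by less than the spread between replicates (10.7% ± 0.590 and 11% ± 0.60), and with 2 libraries against 2 an exact test cannot go below p = 0.333. Of 31 GGG-context cytosines tested, 4 passed Fisher's exact test on pooled reads (12.9%, background 11.1% of 253), 1 higher (background 2.37%) and 3 lower in LF (background 8.7%), and 8 had an unadjusted p under 0.05. The beta-binomial test called 1, Col4a6 (background 1.19%). By limma 0 passed (background 0.0%) and 3 had an unadjusted p under 0.05. For the unadjusted counts of 8 and 3 no share over all 253 is at hand, so whether they exceed it cannot be said. Col4a6 had 21.2% and 14.1% in LF against 5.65% and 5.96% in MF at 124 to 151 reads, the replicates not overlapping. It was methylated in LF and not in MF, so it was tested through LF only and no p-value is given. Among the 28 methylated in MF, 3 passed (background 9.66%), 0 higher (background 0.84%) and 3 lower (background 8.82%). The 3 lower ones were both adjacent cytosines of Mgat4b, an enzyme of N-glycan branching (18.5% and 19.6% against 21.9% and 23.3% for the first), and Atp6v0a1 (13.9% and 11.4% against 17.7% and 15%). The count depended on single libraries: it was 1 without LF replicate 1, 2 without LF replicate 2 and 1 without MF replicate 1.

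In polysome mRNA, 6 of 51 passed between pLF and pMF (11.8%, background 11.4%), 3 higher (background 8.45%) and 3 lower (background 3.0%) in pLF. Between pHF and pMF, 9 of 54 passed (16.7%, background 21%), 7 higher (background 14.5%) and 2 lower (background 6.53%) in pHF. The direction of this split turned without pMF replicate 1, to 3 higher and 4 lower, and over all GGG-context cytosines, methylated or not, to 40 higher and 56 lower. The beta-binomial test and limma each called 0 in both comparisons (background 1.09% and 0.0% by the beta-binomial test, 0.0% in both by limma). For limma, 5 and 3 had an unadjusted p under 0.05, and for Fisher's exact test 15 and 14. No share over all cytosines is at hand for these unadjusted counts, so whether they exceed it cannot be said. The 6 that passed Fisher's exact test between pLF and pMF became 14 without pLF replicate 2, 11 without pMF replicate 1 and 3 without pMF replicate 2. The 9 between pHF and pMF became 16 without pHF replicate 1 and 5 without pHF replicate 2. The cytosines with the widest differences and separate replicates were Fahd2a (22.8% and 36.4% in pLF against 13.8% and 13.4% in pMF), Klhl26 (48.7% and 53.5% in pHF against 23.5% and 47.4%), Wwox (15.7% and 26.8% in pHF against 7.46% and 6.42%), Hic1 (32.9% and 37.5% in pHF against 19.3% and 24.6%) and Farp2 (8.70% and 8.77% in pHF against 27.8% and 24.1%). Wwox was not methylated in pMF nor Farp2 in pHF, so each was tested through the group in which it was high, as were 7 of the 51 through pLF only and 8 of the 54 through pHF only. Among the 44 methylated in pMF and covered in pLF, 5 passed between pLF and pMF (background 8.95%), 2 higher (background 5.43%) and 3 lower (background 3.51%). Among 46 such cytosines, 6 passed between pHF and pMF (background 16.7%), 4 higher (background 9.03%) and 2 lower (background 7.69%). MF and pMF serve as the control in both folate comparisons of their fraction, so these comparisons share samples.

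The libraries labelled HF differed from MF at far more cytosines. Of 33 GGG-context cytosines tested, 25 passed (75.8%, background 89.2% of 343), 20 higher (background 58.3%) and 5 lower (background 30.9%), with 20 by the beta-binomial test (background 85.7%) and 16 by limma (background 81.0%). Of the called, 20 isolated ones were higher and 1 lower in the libraries labelled HF, while all 4 clustered ones were lower. These counts by class are a description, with no share over all called cytosines at hand. Cul5, the scaffold of a ubiquitin ligase, had 31.3% and 28.9% against 9.34% and 5.88% in MF, and Cox6b2, a cytochrome c oxidase subunit, 32.2% and 29.5% against 1.41% and 11.2%. Of the 33, 17 had been tested only because they were methylated in the libraries labelled HF, Cul5 and Cox6b2 among them. Of these 17, 14 passed, all higher, so the direction of the called ones was largely set by how they entered. Among the 16 methylated in MF, 11 passed (background 82.8%), 6 higher (background 12.6%) and 5 lower (background 70.2%). Psma4, an alpha subunit of the proteasome core, had 24.2% and 18.4% in these 2 libraries at 1011 and 971 reads, and 0.826% to 4.52% in the other 10. Its 21 bases occur at 2 places in the genome.

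The clustered cytosines went the other way. The first Mgat4b cytosine had 0.254% and 0.702% in the libraries labelled HF at 2756 and 1995 reads, against 18.5% to 23.3% in LF and MF and 26.6% to 37.0% in polysome mRNA, pHF included. Zc3h4, a zinc finger protein, had 0.562% and 1.08% against 14% to 23.8% in LF and MF and 20.5% to 28.6% in polysome mRNA. The median over the clustered GGG-context cytosines was 17.1% to 22.2% in the 4 LF and MF libraries and 22.3% to 28.6% in polysome mRNA. In the libraries labelled HF, 11 and 4 of the 21 were listed with the coverage, with a median of 1.85% and 0.583%. The 50 isolated ones were listed with the coverage at 49 and 49, with medians of 15.8% and 12.1%, against 6.52% to 7.98% in LF and MF and 12.9% to 15.3% in polysome mRNA. These medians are a description, because a cytosine entered through any condition in which it was methylated. Of the 71, 25 were methylated in polysome conditions only, and some, such as Psma4 and Mink1, in HF as labelled only. Clustered ones had neighbours called in MF or pMF, so the contrast follows in part from how cytosines were chosen and classed. The same split was seen in the clustered cytosines outside the GGG context, whose medians were 1.87% and 1.85% in the libraries labelled HF and 13.1% to 18.7% in LF and MF. Marker genes moved with these libraries. Listed cytosines of the 5 mesenchymal genes numbered 1862 and 1779 against 1371 to 1472 in LF and MF. Median coverage of Acta2 was 2752 and 2344.5 against 359 to 646, and that of Col1a1 82 and 87 against 20 to 37, while Col1a2 and Pdgfrb differed less and Dcn was listed in 1 library. Median coverage of Fabp7 was 3363 and 3255 against 8432 to 15752. Their part in the result was not tested.

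**Figure D5:**
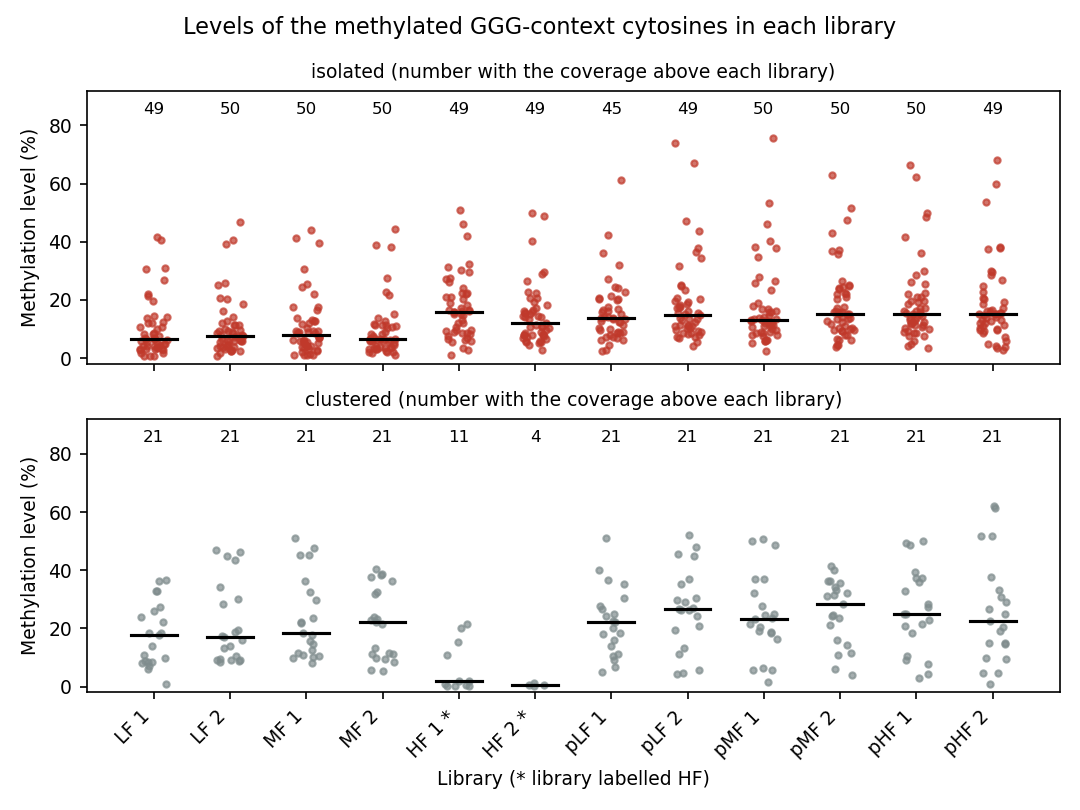
Methylation level (%) of the 50 isolated (top) and 21 clustered (bottom) methylated GGG-context cytosines in each library, 1 point per cytosine with a coverage of at least 20, a black line at the median and the number of points above. In the libraries labelled HF the clustered median falls to 1.85% and 0.583%, with 11 and 4 points, while the isolated medians are 15.8% and 12.1%. Cytosines entered through any condition in which they were methylated, so the medians are a description.

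Few of the methylated GGG-context cytosines were in genes of the lists used here, which were drawn up with earlier results of these data known. Of 110 GGG-context cytosines in 20 extracellular matrix genes, 1 was methylated, that of Col4a6 (0.909%, against 1.60% overall). Of 8 in 3 genes of growth and PI3K-AKT signalling, 1 was methylated, that of Igfbp4, a binding protein of insulin-like growth factors. The study itself names Igfbp4 among its genes with a methylation difference between pLF and pMF, so its place in the list is not independent of these data. None was methylated among 117 in 51 cytosolic ribosomal protein genes, 98 in 29 translation factor genes, 74 in 15 actin cytoskeleton genes, 60 in 22 RNA processing factor genes, 24 in 6 NSC identity genes, 8 in 5 folate and methionine cycle genes and 7 in 2 genes of m5C writers, readers and erasers. For Igfbp4, LF had 1.82% and 4.17%, MF 13.3% and 8.25%, and HF as labelled 20.3% and 16.7%. Its polysome levels were 17.1% and 15.1% (pLF), 11.3% and 10.1% (pMF), and 8.94% and 13.1% (pHF). LF was the lowest of the 6 conditions and did not overlap any other. The Igfbp4 cytosine was methylated in neither LF nor MF, so it was not among those tested between them. It was singled out after its values were seen, and no share of all cytosines that separate in this way is at hand.

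Among genes with more than 1 methylated GGG-context cytosine, Cenpb, which binds the centromere's satellite DNA, had 4, all of its covered ones, and Hic1, a transcriptional repressor, had 3 of 3. Map7d1, Cacna1a, Ccny, Fastk, Kat8 and Mgat4b had 2 each. Except for 1 cytosine of Cacna1a, all were clustered. The 4 of Cenpb had 32.9% to 51.1% in LF and MF and 35.2% to 62.2% in polysome mRNA, and 10.9% to 21.4% in the first library labelled HF, while the second did not list them with a coverage of 20. Neighbours in a cluster share reads, so they are not separate observations.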

How the data were processed

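The authors trimmed reads with fastp, aligned them (meRanGh, mm10) listed cytosines with meRanCall from a coverage of 10 on, and annotated them with Ensembl gene features. The deposited files give, per library and cytosine, counts of reads (coverage and methylated reads) and the methylation level as a fraction, which equalled methylated reads over converted plus methylated reads at every cytosine. No read was remapped. Lists held 797260 to 2071190 cytosines with a summed coverage of 1186213013 to 2857966129 per library. Cytosines with the state of a variant were left out. The 21 bases in the lists equalled GRCm38.p6 at 212737 of 212737 cytosines, and regions were taken from GENCODE vM21.

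The standard filter asked for 20 reads of coverage, a level of 0.1 and 6 methylated reads, or more of each. Groups came from the deposited labels. Tests ran in Python 3.11.15 (scipy 1.17.1) and R 4.3.3 (limma 3.58.1, log2 odds with a pseudocount of 0.5), each over all methylated cytosines of the groups compared, with Benjamini-Hochberg adjustment and a threshold of 0.05, and were tested on simulated data. Alternatives were CMH, limma with and without the replicate block, a beta-binomial test, a coverage minimum of 50, other filters, cytosines chosen in total mRNA or in the second group only (added after seeing the data), isolated cytosines only and leaving out each library. Replicate numbers were not taken to pair samples, since the labels do not say so. The correlation of replicate differences between groups was -0.105 to 0.0843 over 321 cytosines, and so weak a correlation does not exclude a pairing. The study calls its replicates biological, and whether they came from separate animals is not given in the sources used here. P-values of the tests over libraries, of limma and of the beta-binomial test therefore measure the spread between these samples. Those of Fisher's exact test on pooled reads measure the counting of reads only.

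The named cytosines were the 12 isolated ones with the highest mean level over MF and pMF that passed in all 4 libraries, up to 5 called ones per comparison with the widest pooled difference and separate replicates, and methylated ones of the gene lists. Others named (Psma4, Igfbp4 across conditions, Cenpb and the interactions) were chosen after their values were seen. The context, the lists and the tests were chosen with earlier results of these data known. Intervals cover counting error only, since reads carry no molecular identifiers.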

Additional observations from a re-analysis of the deposited data

Results flagged for a closer look

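At 12 GGG-context cytosines the difference between high and mid folate was not the same in polysome and in total mRNA by limma's interaction term, of 52 tested (171 of all 351). Of these, 5 were methylated in only 1 of the 4 groups compared and entered through the group where they were high, so their values are a description with no p-value. Among cytosines methylated in 2 or more of the 4 groups, 7 of 32 passed (limma adjusted p 0.000293 to 0.0278), against 101 of all 213 (47.4%). All 12 rest on the libraries labelled HF, and those libraries do not hold the counts of the published site table. In 4 clustered cytosines the log2 odds difference in polysome mRNA exceeded that in total mRNA, by 6.86 and 5.91 at the adjacent Mgat4b cytosines, 4.83 at Zc3h4 and 4.67 at Cacna1a. The 5 are Psma4, Mink1, Emd and Galnt10, methylated in HF as labelled only, for which a negative value followed from how they were chosen, and Cacna1a, methylated in MF only. In 8 isolated ones the difference was lower in polysome mRNA, at -4.33 for Psma4, -3.61 for Cox6b2, -2.98 for Mink1, -2.93 for Emd, -2.85 for Galnt10, -2.51 for Farp2, -2.51 for Col4a6 and -1.77 for Thap12. For Col4a6 the level was 27.0% and 20.7% in the libraries labelled HF against 5.65% and 5.96% in MF, and 25.6% and 28.7% in pHF against 37.8% and 24.4% in pMF.

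Between low and mid folate the same interaction passed at 0 of 64 GGG-context cytosines by limma, and 4 had an unadjusted p under 0.05, against 40 (7.71%) of all 519 tested, of which 0 passed. At 5 of the 64, and at 41 (7.9%) of the 519, the replicates moved in opposite directions in the 2 fractions without overlap. One of the 5 is Igfbp4, named for its gene list, lower in both LF libraries (1.82% and 4.17%) than in MF (13.3% and 8.25%) and higher in both pLF libraries (17.1% and 15.1%) than in pMF (11.3% and 10.1%). It was singled out after its values were seen, and no p-value is given.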

How the results depend on the processing

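The higher share called in the GGG context kept its direction and its side of the threshold under 7 other settings, at 0.498 to 1.18 percentage points, and when leaving out each of 12 libraries, at 1.03 to 1.15 points. The polysome difference in mean level was above 0 under each of 35 alternatives, at 2.25 to 9.87 points. Except for those that chose cytosines in total mRNA alone, they admit cytosines through polysome libraries and bear on the size only. Of the former, all of which include the libraries labelled HF, 6.31, 9.87 and 5.49 points passed, and 2.25 points with pooled reads did not (exact permutation test, p = 0.0648). Without the libraries labelled HF and without pHF the value was 5.98 points with the cytosines chosen anew for coverage, and 7.09 on the same 46. The replicate block left it at 6.30 points. It was 6.12 for cytosines methylated in another folate condition. The alternatives on the same cytosines, on another folate condition and on cytosines chosen in 1 fraction or group were added after seeing the data. The difference between the contexts, for which no test is given, was -0.343 points, -2.40 for cytosines methylated in another folate condition and -1.02 at a coverage of at least 50. It changed sign to 1.11 points without the libraries labelled HF and pHF (cytosines chosen anew; 2.06 on the same cytosines), 1.55 with isolated cytosines and 3.48 with pooled reads. With cytosines methylated in total mRNA it was 0.332 points, 3.97 with the isolated ones and 2.51 with pooled reads, and with those methylated in LF or MF 0.0381. Leaving out 1 library, it ran from -0.617 to 0.894 with cytosines chosen anew and from -0.765 to 0.0787 on the same cytosines.

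For single cytosines, limma without the replicate block called 15, 14, 17 and 16 in pMF versus MF, pLF versus LF, pHF versus HF as labelled and HF as labelled versus MF, and 0 in LF versus MF, pLF versus pMF and pHF versus pMF. The replicate numbers pair nothing in the labels. With the replicate block it called 4, 16, 12 and 16 (64, 116, 187 and 274 over all cytosines tested), and again 0, 0 and 0 (0, 0 and 4 over all). Fisher's exact test on pooled reads, the setting reported above, gave 30, 28, 32, 25, 4, 6 and 9 in this order. Among cytosines methylated in the second group it gave 9, 10, 16 and 11 in the first 4. On all cytosines, methylated or not, it called 343 (7.75% of the GGG context, 8.33% of all cytosines), 355 (14.7% and 14.7%), 410 (18.9% and 18.2%), 448 (13.9% and 15.5%) and 0 in the first 5, and 96 (3.62% and 3.36%) in pHF versus pMF. There the direction turned in pHF versus HF as labelled, with 162 higher and 248 lower against 23 and 9, and in pHF versus pMF, with 40 and 56 against 7 and 2. The beta-binomial test gave 1, 0 and 0 in the last 3. Leaving out 1 library, the ranges were 24 to 38, 25 to 38, 30 to 40, 20 to 36, 1 to 5, 3 to 14 and 5 to 16. The CMH test with the replicate block gave 30 in pMF versus MF, and pairing the replicates crosswise, for the correlation of -0.105 in pLF versus pMF, gave 7 there (chosen after seeing the data).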
